A study of Mus musculus with 25 samples.

Results

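The change in RNA between the 2-cell stage and the morula was described in mouse embryos that had been cultured with PBS, a buffered salt solution, and without the small molecule tested elsewhere in the series. It rests on 8 of the 25 libraries: 4 of 2-cell embryos and 4 of morulae, the ball of blastomeres that compacts before the blastocyst cavity forms. A gene entered the comparison when it reached 1 FPKM (fragments per kilobase of transcript, scaled to the mapped fragments of a library) in at least 4 of these 8 libraries, and 12517 genes of the 34228 listed did so.

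All embryos were of strain C57BL/6. Immature oocytes were matured in culture to metaphase II (MII), fertilized in vitro, and grown to the 2-cell stage and then to the morula, with PBS in each medium (M16, then G1 and G2). Every group used here therefore shares in vitro maturation, in vitro fertilization and PBS. The 4 libraries of PBS MII oocytes were used only to give a level before fertilization. How many embryos went into a library, and whether libraries of a group came from separate females or fertilizations, is not given in the sources used here, so p-values measure the spread between these samples, which may be technical. One morula library has PBSt in its title in place of PBS, while its agent is given as PBS. It is replicate 3 here, and leaving it out changed the count of genes called by no more than 1.5 times in either direction.

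The mouse egg is transcriptionally silent, and the embryo starts with RNA that the oocyte stored. Most of this maternal RNA is cleared around the 2-cell stage, when the embryonic genome is first read in earnest and a short burst of genes, among them the Zscan4 family, is transcribed. By the morula stage the blastomeres adhere to one another and polarize, and the outer cells begin to differ from the inner ones: the outer cells found the trophectoderm, the epithelium that later forms the placenta, and the inner ones the pluripotent inner cell mass.

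The steps of the FPKM values implied 15705300 to 18661500 counted reads or fragments per 2-cell library and 17230900 to 20998300 per morula library, so that 1 read in a gene of 1 kb was worth 0.0476 to 0.0637 FPKM. Pearson's r across the tested genes, on log2(FPKM + 1), was 0.977 to 0.983 between 2-cell libraries, 0.959 to 0.982 between morulae and 0.261 to 0.289 between the stages (genes are not independent replicates). The number of genes at 1 FPKM or more was 11354 ± 203 in 2-cell embryos and 9917 ± 62.0 in morulae (mean ± SD, n = 4 each), and the ranges did not overlap (two-sided exact permutation p = 0.0286, the smallest that 4 against 4 can give; 0.0286 after adjustment over 3 library measures). The 10 most abundant genes held 18.0% ± 0.603 of all FPKM in 2-cell embryos and 13.7% ± 0.672 in morulae, again without overlap (exact permutation p = 0.0286). The difference in the number of genes, -1437, was -3411.5 at a minimum of 0.1 FPKM and -252 at 5 FPKM. Among 3225 genes at a mean of 5 FPKM or more in both stages, the median SD of log2 values was 0.174 in 2-cell embryos and 0.272 in morulae, and 72.5% of these genes had the larger SD in morulae.

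Between the stages, 5343 genes were higher in morulae (42.7% of those tested) and 5635 were lower (45.0%), at an adjusted p below 0.05 in limma, and 1539 were not called. Of these, 4278 (34.2%) were higher and 4651 (37.2%) lower by 2-fold or more on the log2(FPKM + 1) scale, which is the scale of every log2 fold change below and understates the change of genes of low level. Changes of 16-fold or more numbered 433 upwards and 772 downwards, and the median over all tested genes was -0.08. The 4 values of one stage lay entirely above the 4 of the other for 83.4% of the genes tested. With so many genes called, the counts of any gene group below are to be read against these shares. Of the genes tested, 2729 reached 1 FPKM in every 2-cell library and in no morula, and 1435 in every morula and in no 2-cell library; such genes had to differ. The 6058 genes at 1 FPKM or more in all 8 libraries did not, and 3032 of them were higher and 1925 lower. FPKM is a share of a library's RNA, so every value is relative to all other genes of that library. Smart-seq2 copies RNA from its poly(A) tail, so a change in amount and a change in tail length cannot be told apart, nor can fewer cells with an RNA and less of it per cell.

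**Figure D1:**
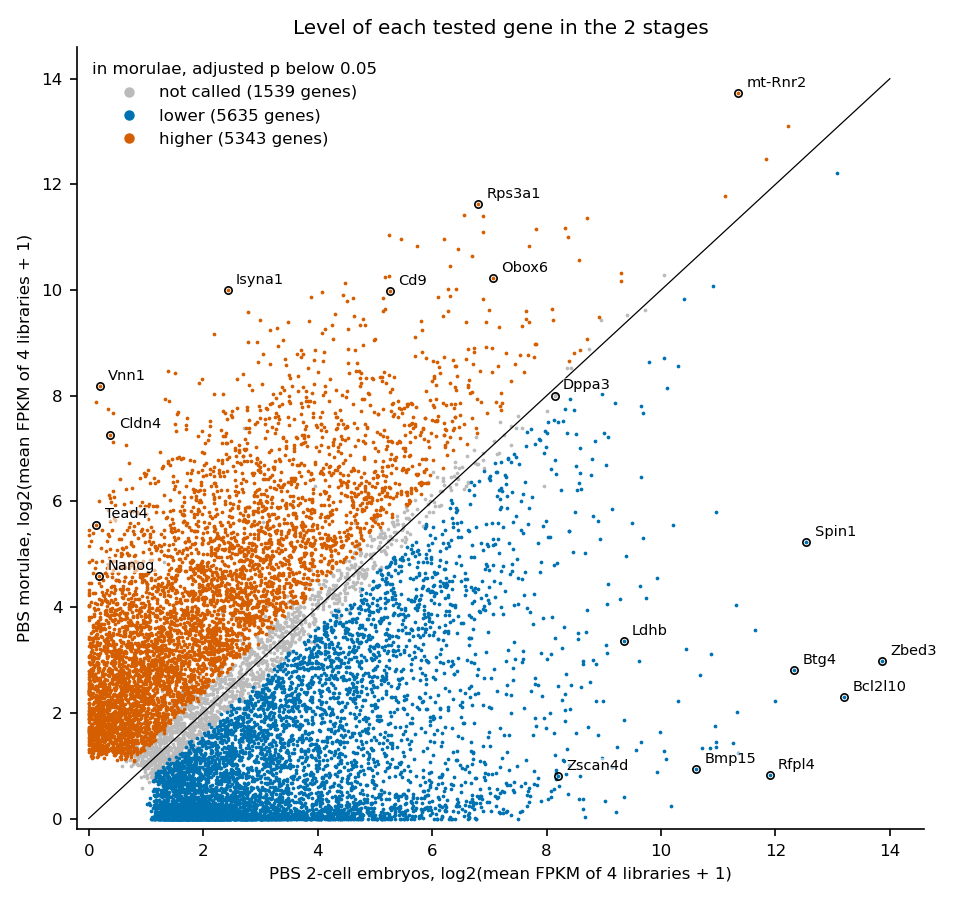
Each point is 1 of the 12517 genes tested, at log2(mean FPKM + 1) in 2-cell embryos (x axis) and in morulae (y axis), coloured by its call in limma; the line marks equal levels. The 5343 genes above it in orange and the 5635 below it in blue lie far from the line for genes such as Vnn1 and Zbed3, while Dppa3 lies on it.

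The nuclear genes among the 10 most abundant of the 2-cell embryo all fell, and they are known as genes of the oocyte. Zbed3 (chr13:95323612-95337841, GRCm38, the build of all coordinates here), a protein of the egg's subcortical maternal complex, was the most abundant gene of the 2-cell libraries at 15122, 17079.6, 15977 and 11428 FPKM and stood at 8.05, 6.82, 7.84 and 4.69 FPKM in the 4 morulae. Bcl2l10 (chr9:75347758-75351632), a Bcl2 relative known from oocytes, read 9817, 8906, 9202 and 9685 FPKM in the 2-cell libraries and 2.34, 6.09, 6.04 and 1.17 FPKM in morulae. The 8 values part without overlap for both genes, which was a condition for the 12 largest falls. The changes were -10.90 ± 0.18 and -11.07 ± 0.34 on the log2 scale (fold change ± SE, adjusted p = 2.5e-11 and 3.8e-10 in limma). Rfpl4 (chr7:5109787-5116950), a RING finger protein of the egg, fell as far as Bcl2l10 within their errors, from 3603, 3858, 3502 and 4309 FPKM to 0.638, 1.35, 0.648 and 0.447 FPKM (-11.09 ± 0.16). Btg4 (chr9:51060901-51119875), the adaptor that brings the CCR4-NOT deadenylase to maternal RNA, went from 4704, 5161, 4973 and 5647 FPKM to 6.22, 6.24, 5.53 and 5.89 FPKM (-9.52 ± 0.11), a morula level that was low but nearly the same in each library. Spin1, a reader of methylated histone H3, fell from 5944 ± 428 to 36.6 ± 1.89 FPKM, and Trim61 from 3208 ± 121 to 10.8 ± 2.25 FPKM (mean ± SD, n = 4 each). Also among the 12 largest falls were Tcl1 (-9.74 ± 0.30) and its neighbours Tcl1b1, Tcl1b2, Tcl1b3 and Tcl1b4 (-10.17, -9.60, -9.49 and -9.13), of a family of coactivators of the kinase AKT. Tcl1b2 and Tcl1b3 share 24.0% and 34.1% of their 50-base words with other annotated transcripts, so reads may be split between family members. The homeobox gene Obox5 (-9.52 ± 0.14), the growth factor Bmp15 (-9.67 ± 0.13) and AA545190 (-9.09 ± 0.12) completed the list.

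Oocyte genes fell as groups. Of 26 tested oocyte factors, secreted factors and transcription factors of the female germ line, 24 fell and 1 rose, with a median log2 fold change of -7.39. The member that rose was Obox6, an oocyte-specific homeobox gene by name, from 129, 125, 142 and 138 FPKM to 1533, 1215, 977 and 1044 FPKM, and Taf4b was not called (0.49). Without morula replicate 1, Taf4b was called higher (0.67, adjusted p = 0.0112 in limma), as it was under median-of-ratios scaling and when scaled without mitochondrial and ribosomal protein genes. In the subcortical maternal complex, the protein lattice under the egg membrane, and its relatives, 16 of 17 tested members fell (median -5.70). Ooep, one of its core subunits, read 207, 141, 133 and 162 FPKM in 2-cell embryos and 1.16, 0.950, 1.29 and 0.154 FPKM in morulae, and Nlrp5 (Mater) 68.6, 47.0, 58.6 and 70.8 and 1.65, 0.515, 1.10 and 3.73 FPKM, with no overlap for either (-6.45 ± 0.23 and -4.61 ± 0.31). Khdc3 (Filia) was the 1 member called higher, at 0.0932, 0.235, 0.0601 and 0.0579 FPKM in 2-cell embryos and 12.5, 16.8, 12.1 and 6.73 FPKM in morulae, but 34.1% of its words occur in another annotated transcript. Of 13 tested genes of the egg coat and of sperm binding, 11 fell (median -4.47; -7.07 to -4.05 over the settings tried). Zp2, a coat protein, fell from 60.6 ± 7.61 to 0.809 ± 0.320 FPKM. Zp3, another coat protein, stood at 33.3, 24.4, 26.1 and 33.1 FPKM in 2-cell embryos. In morulae Zp3 read 27.5, 43.1, 28.03 and 25.7 FPKM, so that the stages overlap (0.07 ± 0.19, adjusted p = 0.734 in limma). Cd9, the egg membrane protein needed for sperm fusion and also a common tetraspanin of epithelia, rose from 34.0, 40.5, 34.6 and 41.0 FPKM to 1150.2, 1001, 956 and 934 FPKM (4.71 ± 0.12).

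The genes that fell differed in their level in MII oocytes. These levels come from a table that was normalized separately, so they are set beside the embryo values without a test. Of the 5635 genes lower in morulae, 4404 (78.2%) had a mean of 1 FPKM or more in MII oocytes, against 7902 (63.1%) of all genes tested and 2537 (47.5%) of the 5343 higher ones. Some transcripts were already far lower in 2-cell embryos: Gdf9, an oocyte growth factor, had 3363 ± 204 FPKM in MII oocytes, 147 ± 13.2 in 2-cell embryos and 1.22 ± 0.557 in morulae (mean ± SD, n = 4 each), and the linker histone H1foo 5846 ± 23.1, 287 ± 71.7 and 0.673 ± 0.113. Mos, the kinase that holds the egg at metaphase II, had 256 ± 17.4 FPKM in MII oocytes and only 1.85, 1.07, 1.49 and 1.51 FPKM in the 2-cell libraries, from which its further fall to morulae (-0.995 ± 0.18, adjusted p = 2.9e-04 in limma) did not pass under quantile normalization (-0.48, adjusted p = 0.0645). Others differed far less between MII oocytes and 2-cell embryos, among them Bcl2l10 (10829 ± 475 FPKM in MII oocytes), Btg4 (3586 ± 63.9) and Spin1 (5252 ± 299). Of the 3562 genes that fell and had a 2-cell mean of 5 FPKM or more, 1015 had a higher mean in MII oocytes than in 2-cell embryos. For 463 the 2-cell mean was at least 10 times the MII mean, with genes not listed for oocytes counted as 0 FPKM. Of all 5635 genes that fell, 244 were not listed for oocytes.

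**Figure D2:**
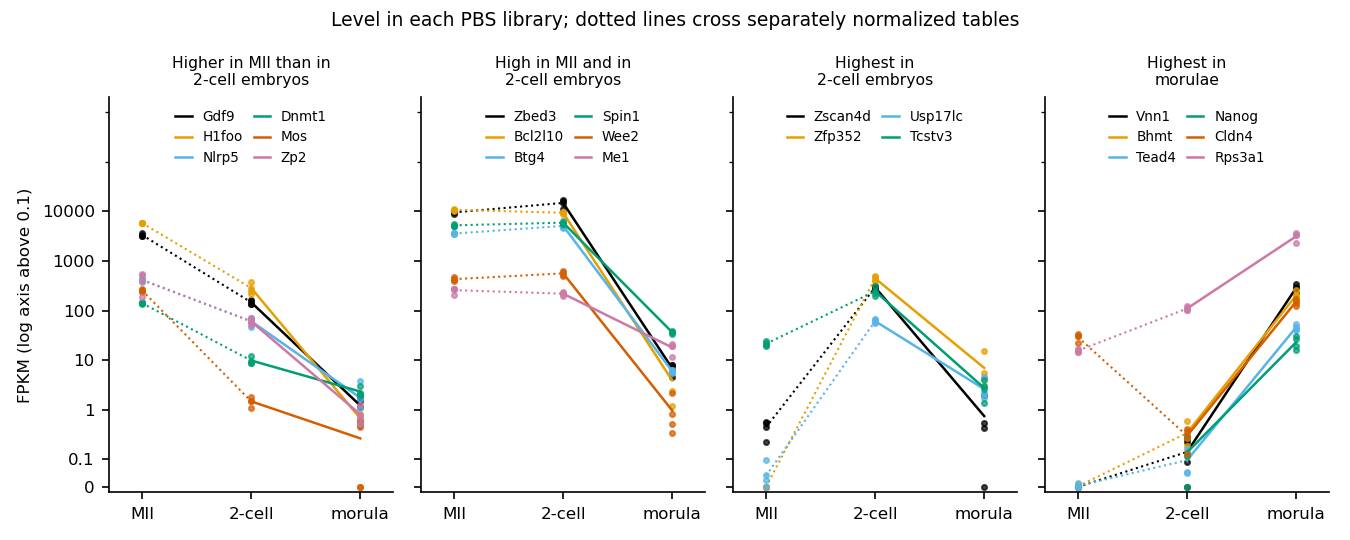
FPKM of single PBS libraries (points, 4 per stage) on a log axis that is linear below 0.1, with lines joining stage means; dotted lines join the separately normalized oocyte table to the embryo table. Gdf9 and H1foo are lower at each stage, Bcl2l10 and Btg4 are high in MII oocytes and 2-cell embryos and low in morulae, Zscan4d is high in 2-cell embryos alone among the stages drawn, and Vnn1 and Tead4 are high in morulae alone; Nanog has no MII value here.

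Genes of the 2-cell burst are known to be transcribed by the embryo itself. Of 34 tested members, 31 fell by the morula stage (median -4.27), 1 rose and 2 were not called, and their summed level went from 3342 to 3683 FPKM in the 2-cell libraries to 184 to 293 FPKM in morulae. Only 4 of the 34 had a mean of 1 FPKM or more in MII oocytes. Zscan4d, of a family of zinc finger proteins that marks this stage, had 302, 279, 313 and 286 FPKM in 2-cell embryos and 0, 2.02, 0.536 and 0.434 FPKM in morulae (-7.52 ± 0.28), with 0.446 ± 0.154 FPKM in MII oocytes. Zfp352, another zinc finger gene, read 475, 392, 423 and 501 FPKM and then 15.1, 5.41, 2.96 and 4.45 FPKM (-6.02 ± 0.35), and was listed at 0 in the MII oocytes. Usp17lc, a deubiquitinating enzyme, read 63.6, 59.2, 66.4 and 56.1 FPKM and 1.71, 2.06, 2.14 and 4.55 FPKM (-4.17 ± 0.21), and Tcstv3 fell from 246 ± 48.1 to 2.74 ± 1.10 FPKM. All 4 were higher in every 2-cell library than in any morula. Members of these families are near copies: 49.6%, 44.7% and 31.4% of the 50-base words of Zscan4d, Usp17lc and Tcstv3 occur in other annotated transcripts, so their values stand for families rather than for single genes. The member that rose, Tdpoz2 (7.01, 6.32, 5.38 and 9.74 FPKM, then 67.1, 38.6, 36.5 and 26.9 FPKM), shares 48.3% of its words, and Sp110 (0.29) and Ubtfl1 (0.08) were the 2 not called. Without morula replicate 4, Sp110 was called higher (0.52, adjusted p = 0.0409 in limma).

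The letters of the TATA box were searched in the promoters of these genes. Since families among them are near copies, their promoters may not be independent of one another, which was not tested. In RefSeq promoters of GRCm38.p6, from 250 bases before to 50 after the start of a gene, TATAAA on either strand occurred in 7 of the 17 burst genes that had an entry (41.2%), in 14.2% of all 27025 promoters and in 7.62% of the 8508 tested genes with an entry. The 120 bases before the start of 2 burst genes are given 5′ to 3′ on the gene's strand with TATAAA in capitals, to show where it lies; a match is a description and not a site. The first (chr7:11166149-11166268, minus strand) belongs to Zscan4d and the second (chr7:103416576-103416695, plus strand) to Usp17lc.
Zscan4d: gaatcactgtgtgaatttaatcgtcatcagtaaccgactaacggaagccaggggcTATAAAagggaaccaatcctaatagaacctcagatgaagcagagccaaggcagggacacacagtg
Usp17lc: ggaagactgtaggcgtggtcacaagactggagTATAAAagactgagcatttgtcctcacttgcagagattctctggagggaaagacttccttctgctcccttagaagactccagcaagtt

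The match begins 65 bases before the RefSeq start in Zscan4d and 88 bases before it in Usp17lc. GENCODE draws both genes from further upstream, so that 11 of the printed bases of Zscan4d and all 120 of Usp17lc, with its match, lie inside the GENCODE gene. Among the 439 genes with an entry that fell by 16-fold or more, TATAAA occurred in 15.5%, and among the 293 that rose by as much in 6.14%. It occurred in 8.36% of the 3722 that fell, and in 7.11% of the 3730 that rose. The GC box GGGCGG occurred in 65.0% of genes that rose and 56.2% of those that fell. For changes of 16-fold or more its shares were 60.1% upwards and 36.9% downwards. Beside these stand 61.1% of all tested genes with an entry and 35.9% of all promoters.

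The machinery that stores and clears maternal RNA, and that held the egg in meiosis, was split. Of 34 tested genes of RNA storage and decay, 20 fell and 9 rose (median -1.53; -2.46 to -1.22 over the settings tried). Next to Btg4, the falls included Cpeb1, which controls tail length (18.8 ± 1.02 to 2.14 ± 0.873 FPKM), and Cnot10, a subunit of the CCR4-NOT complex that Btg4 binds, rose (1.42 ± 0.266 to 11.1 ± 2.66 FPKM). Of 25 tested genes of meiosis and MII arrest, 14 fell and 6 rose (median -0.94; -1.13 to -0.48 over the settings tried). Wee2, the oocyte form of the kinase that restrains CDK1, had 533, 598, 632 and 497 FPKM in 2-cell embryos and 0.334, 0.832, 2.18 and 0.523 FPKM in morulae (-8.25 ± 0.24). Cdc20, the activator of the anaphase-promoting complex that every dividing cell uses, had 78.8, 71.9, 54.8 and 64.2 FPKM and then 699.9, 1071, 831 and 1114 FPKM (3.75 ± 0.17).

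Several proteins of the egg have a close relative that other cells use. Such pairs and other related genes, 16 pairs with both members tested, were set side by side. In 8 of them the first-named member fell and the second-named rose. Of all tested genes, 42.7% were higher and 45.0% lower. Npm2, the egg nucleoplasmin that unpacks sperm chromatin, read 469.7, 396, 359 and 424 FPKM in 2-cell embryos and 10.03, 14.96, 9.99 and 7.14 FPKM in morulae, and Npm1, the nucleolar form, 119, 103, 94.7 and 103 and 452, 541, 474 and 344 FPKM (-5.20 ± 0.19 and 2.08 ± 0.15). The RNA-packing protein Ybx2 and the cap-binding protein Eif4e1b fell by 3.62 and 4.33 on the log2 scale, while Ybx1 and Eif4e rose by 2.10 and 0.84. Kpna7 and Kpna2, importins of the nuclear pore traffic, moved by -7.38 and 1.30, the kinases Aurkc and Aurkb by -1.44 and 1.96, and the cohesin subunits Smc1b and Smc1a by -1.41 and 1.58. Kpna2, Aurkc, Npm1 and Ccnb1 share 62.6%, 54.8%, 24.3% and 23.4% of their words with other transcripts. Tet3, which oxidizes methylcytosine in the zygote, had 25.3, 23.2, 24.3 and 23.4 FPKM in 2-cell embryos and 0.622, 0.556, 0.444 and 0.899 FPKM in morulae, and Tet1, the form of pluripotent cells, 1.11, 1.195, 1.08 and 0.913 and 7.37, 11.6, 11.5 and 21.7 FPKM (-3.95 ± 0.13 and 2.67 ± 0.26). The methyltransferases Dnmt3a and Dnmt3b moved by -0.83 and 1.16. In 4 pairs both members fell: H1foo (-7.40) and H1f0 (-1.91), Bcl2l10 and the cell death inhibitor Bcl2l1 (-2.34), Cpeb1 (-2.69) and Cpeb4 (-2.23), and the cyclins Ccnb3 (-1.99) and Ccnb1 (-0.94). In the last 4 pairs Wee2, Ldhb, Pabpn1l and Uchl1 fell and the relative was not called, with 95% intervals of -0.33 to 0.53 for Wee1, -0.99 to 0.34 for Ldha, -0.24 to 0.65 for Pabpn1 and -0.32 to 0.38 for Uchl3. Under quantile normalization Pabpn1 was called higher (0.52, adjusted p = 0.0195 in limma).

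**Figure D3:**
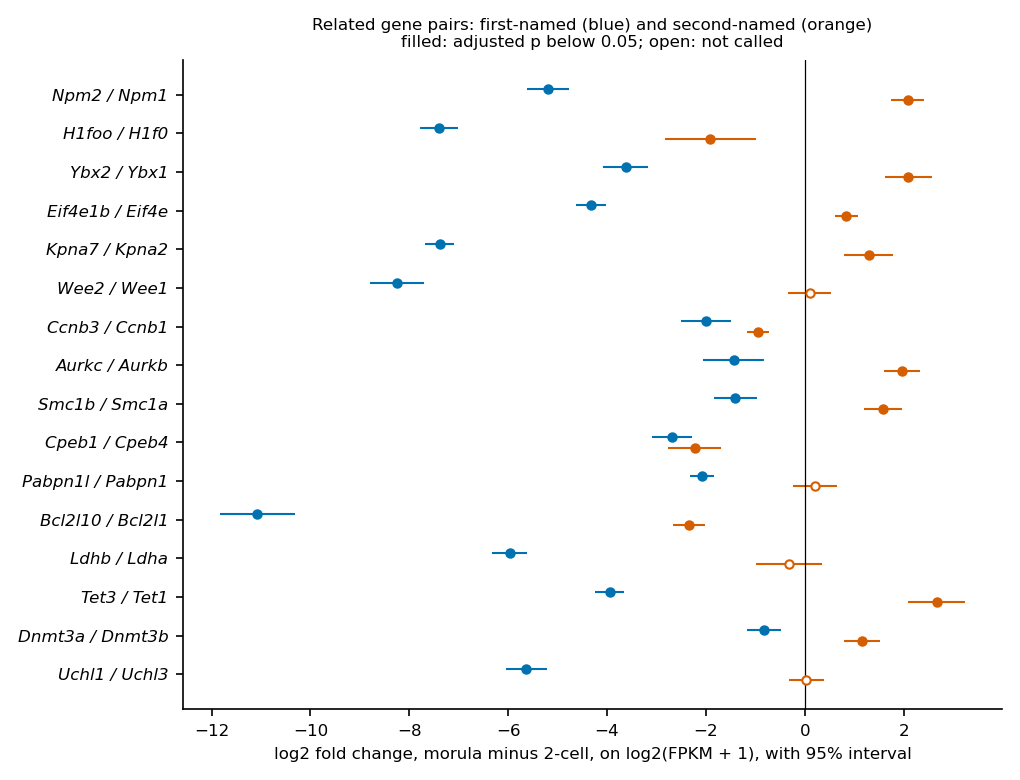
Log2 fold change (morula minus 2-cell) with its 95% interval for 16 pairs of related genes, the first-named in blue and the second-named in orange. Filled points passed an adjusted p of 0.05. The blue points all lie below 0, and the orange ones lie above 0 in 8 pairs, below it in 4 and are not called in 4.

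The genes that rose most were at or near 0 in 2-cell embryos or at a few FPKM. Vnn1 (chr10:23894688-23905343), a pantetheinase of the cell surface, had 0, 0.0887, 0.255 and 0.221 FPKM in the 2-cell libraries and 284, 346, 227 and 297 FPKM in morulae, a rise of 7.98 ± 0.16 (adjusted p = 4.3e-11). It was listed at 0 in all 4 MII libraries. Isyna1 (chr8:70594373-70597290), which makes inositol from glucose 6-phosphate, read 3.71, 4.97, 5.49 and 3.36 FPKM and 958, 1022, 946 and 1148 FPKM (7.58 ± 0.15). Bhmt (chr13:93616675-93637961), which methylates homocysteine from betaine, read 0.188, 0.586, 0.321 and 0.268 FPKM and 255, 209, 202 and 149.6 FPKM (7.24 ± 0.18). Every morula value of these 3 genes lay above every 2-cell value, which was a condition for the 12 largest rises. Other enzymes and carriers among the 12 largest rises were Fbp2, a gluconeogenic phosphatase (6.98 ± 0.20), Sord, sorbitol dehydrogenase (6.91 ± 0.29), the dipeptidase Cndp2 (6.71 ± 0.16) and the zinc importer Slc39a4 (6.404 ± 0.18). Surface and secretory genes were the ferritin receptor Timd2 (6.95 ± 0.17), the proteoglycan Sdc4 (6.64 ± 0.21), the tight junction protein Cldn4 (6.88 ± 0.15) and Lrpap1, a chaperone of lipoprotein receptors (6.44 ± 0.12). Edf1, a transcription coactivator, rose from 1.64 ± 0.892 to 237 ± 38.7 FPKM. Bhmt and Sord share 25.3% and 31.3% of their words with other transcripts. Among the 1435 genes at 1 FPKM in every morula and in no 2-cell library, 128 (8.92%) had a mean of 1 FPKM or more in MII oocytes.

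Genes of the ribosome and of its assembly rose almost without exception, and most translation factors rose. Of 80 tested ribosomal protein genes, 79 rose and 1 fell (Rpl36al, -0.33, near 1 FPKM in both stages, which overlap), with a median log2 fold change of 3.74, and their summed level went from 1672 to 2110.3 FPKM in the 2-cell libraries to 18662 to 26414 FPKM in morulae. The call of Rpl36al was lost under 6 other settings, with the sign turned under quantile normalization (0.27). It was also lost without each of 5 libraries (2-cell replicates 1, 2 and 4, morula replicates 1 and 2). Rps3a1, of the small subunit, had 124, 111, 103 and 103 FPKM in 2-cell embryos and 3725, 3319, 3343 and 2267 FPKM in morulae (4.81 ± 0.16), and was among the 10 most abundant genes of the morula. Rpl4 rose from 118 ± 18.0 to 2717 ± 228 FPKM, Rplp0 from 417 ± 70.1 to 2646 ± 295 FPKM, and Rpl6 also rose (5.88 ± 0.14). These genes have many processed copies: 71.0% of the words of Rps3a1, 33.0% of Rplp0 and 27.7% of Rpl6 occur in other transcripts. Of 57 tested genes that build ribosomes in the nucleolus, 56 rose (median 2.48), with the methyltransferase Ftsj3 at 5.63, 4.96, 4.68 and 7.22 and then 128, 141, 133 and 176 FPKM. Mphosph10, the 1 that fell, differed by less than the other members did (-0.31 ± 0.13, adjusted p = 0.0465) and its values overlapped between stages. That call was lost under 4 other settings and without each of 5 libraries (2-cell replicates 1, 2 and 4, morula replicates 2 and 3), with adjusted p up to 0.189 (scaling without mitochondrial and ribosomal protein genes). Of 62 translation factors, 51 rose and 10 fell (median 2.201). Eif3m, a subunit of the factor that loads the small subunit, rose from 2.82 ± 0.548 to 301 ± 21.5 FPKM, and Eif4e3, a variant cap-binding protein, fell from 59.5 ± 6.62 to 0.356 ± 0.140 FPKM.

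In the same promoter windows CCGGAAG, the core letters bound by ETS factors, occurred in 24 of 60 ribosomal protein genes with an entry (40.0%). Among the genes that rose its share was 23.8%, and among those that fell 13.1%. For changes of 16-fold or more the shares were 22.2% upwards and 6.61% downwards. CCGGAAG was in 18.9% of all tested genes with an entry and 9.12% of all promoters. Rps3a1 and Isyna1 hold it in the 120 bases before their start, which are given with the match in capitals: Rps3a1 (chr3:86142669-86142788, minus strand) and Isyna1 (chr8:70594361-70594480, plus strand), where it reads CTTCCGG because it lies on the other strand.
Rps3a1: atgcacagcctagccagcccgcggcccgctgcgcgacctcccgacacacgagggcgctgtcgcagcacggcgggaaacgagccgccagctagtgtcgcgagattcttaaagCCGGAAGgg
Isyna1: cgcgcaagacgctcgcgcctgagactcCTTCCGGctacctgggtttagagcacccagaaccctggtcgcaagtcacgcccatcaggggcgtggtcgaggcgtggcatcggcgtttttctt

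The match begins 9 bases before the RefSeq start in Rps3a1 and 93 bases before it in Isyna1. In GENCODE these genes also start further upstream, so that 34 of the printed bases of Rps3a1 and 108 of Isyna1, with both matches, lie inside the gene. Both genes were higher in every morula than in any 2-cell library, which for Isyna1 was a condition of its choice. All motifs were searched on both strands, and the 4 stretches printed were picked after the matches were seen. For CCAAT, the Y box, the share was 38.3% of the genes that rose and 40.0% of those that fell. It was 12 of the 17 burst genes (70.6%), which include families of near copies, beside 37.9% of all promoters. The E box CACGTG, which Myc and related factors bind, occurred in 12.01% of the genes that rose, 8.14% of those that fell and 7.24% of all promoters, and the Yy1 motif AAGATGGC in 6.19%, 3.92% and 2.88%, with 5.07% of all tested genes. In the 250 bases before the start alone AAGATGGC occurred in 2.44% of the genes that rose and 2.07% of those that fell, shares whose 95% Wilson intervals overlap (1.99% to 2.99% and 1.66% to 2.58%). The Tead motif GGAATG was in 11.93% of the genes that rose, 11.98% of those that fell and 14.63% of all promoters, and GGATTA, of Obox and Otx class homeobox factors, in 5.95%, 6.15% and 7.16%. The Klf motif GGGTGTGG (3.51%, 4.30% and 3.57%), the octamer ATTTGCAT of POU factors (1.31%, 1.53% and 1.75%) and TCAAGGTCA of Nr5a2 and Esrrb (0.402%, 0.215% and 0.407%) were rare in all 3 sets.

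Nuclear genes of energy metabolism and protein turnover mostly rose. Of 76 tested nuclear genes of the respiratory chain, 70 rose (median 2.39) and 2 fell, Cox7b (-1.25) and Ndufa4l2 (listed at 0 in all 4 morulae). Uqcrb, a subunit of complex III with 25.4% of its words shared, had 3.998, 3.73, 2.96 and 2.78 FPKM in 2-cell embryos and 223, 175, 195 and 92.1 FPKM in morulae (5.24 ± 0.25). Mitochondrial ribosome genes rose in 61 of 73 cases and fell in 6 (median 1.94), with Mrps31 going from 0.290 ± 0.104 to 33.4 ± 3.12 FPKM. The genes encoded by mitochondrial DNA did not share this direction. Of the 12 tested that code for proteins, 5 rose and 5 fell (median -0.13, which was 0.015 without morula replicate 4 and 0.27 at a minimum of 10 FPKM), from mt-Nd6 at 1.17 ± 0.17 to mt-Nd4l at -1.12. mt-Cytb had 8171, 8995, 8216 and 9296 FPKM in 2-cell embryos and 5633, 4160.1, 5154 and 4109.8 FPKM in morulae, and mt-Nd1 4384, 5511, 4489 and 4607 and 8233, 7963, 11829 and 7074 FPKM (-0.87 ± 0.12 and 0.86 ± 0.15). The ribosomal RNA mt-Rnr2 rose from 2606 ± 171 to 13543 ± 1161 FPKM and was the most abundant gene of the morula. With the mitochondrial ribosomal and transfer RNAs, mitochondrially encoded genes held 6.94% ± 0.407 of all FPKM in 2-cell embryos and 10.9% ± 0.724 in morulae (exact permutation p = 0.0286). Without them the shares were 6.10% ± 0.426 and 6.77% ± 0.674 (exact permutation p = 0.143), so that the difference of this share did not pass the test.

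Of 35 tested proteasome subunits, 32 rose (median 3.05), Psmd10 fell (-1.09), and Psmd9 (0.16) and Psmb6 (0.12) were not called. Psmd13, of the regulatory particle, had 1.19, 1.49, 1.22 and 0.474 FPKM in 2-cell embryos and 75.2, 84.5, 78.3 and 84.7 FPKM in morulae (5.31 ± 0.17). All 21 tested genes of the CCT folding chamber and of cytosolic heat shock proteins rose (median 3.14), with Hspa8 at 12.9, 12.5, 14.5 and 14.96 and then 877, 855, 907 and 1113 FPKM, 38.6% of its words being shared. Splicing factors rose in 36 of 42 cases and fell in 1, Snrpb2 (-0.49), around a median of 1.40, and Snrpb, a core protein of the spliceosome, rose from 5.45 ± 0.9998 to 338 ± 56.6 FPKM. Of 28 lysosomal genes, 25 rose (median 2.77). The protease Ctsc had 4.64, 8.66, 11.6 and 7.21 FPKM in 2-cell embryos and 579, 570.3, 572 and 707 FPKM in morulae (6.13 ± 0.22), while Laptm4b (306 ± 35.0 to 8.37 ± 3.38 FPKM), Tpp1 (-2.57) and Ctsh (-1.50) fell.

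**Figure D4:**
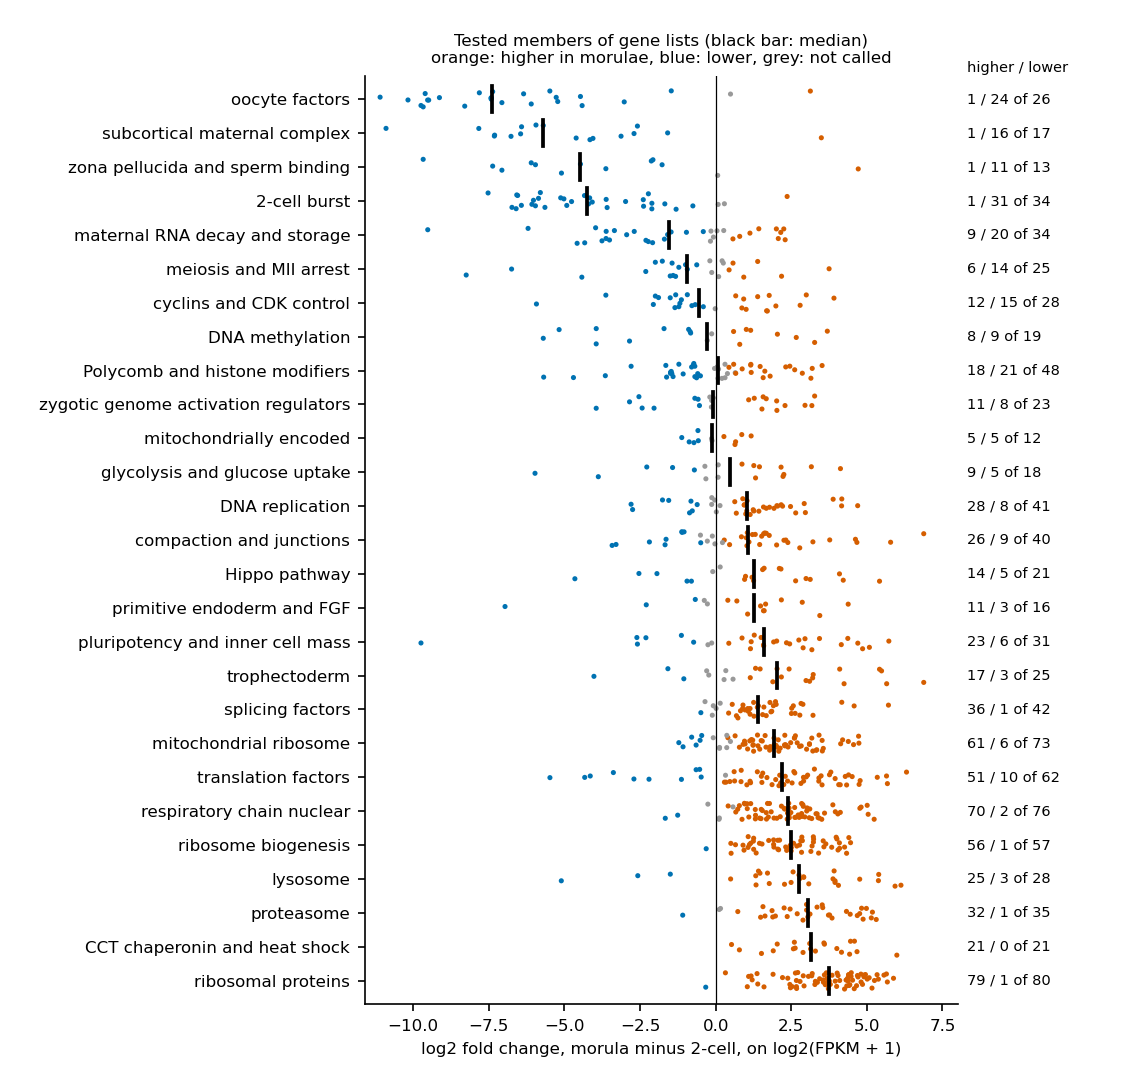
Log2 fold change (morula minus 2-cell) of each tested member of 27 gene lists, with the list's median as a black bar and the numbers called higher and lower at the right; the median over all genes is -0.08. Lists of oocyte and 2-cell genes lie to the left, with medians from -7.39 to -4.27, and those of ribosome, proteasome and chaperonin lie to the right, with medians above 3.

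Genes of the pluripotent lineage rose in 23 of 31 cases and fell in 6 (median 1.59; 1.18 to 2.82 over the settings tried). Nanog, a core factor of pluripotency, had 0, 0.120, 0.302 and 0.132 FPKM in 2-cell embryos and 16.1, 26.4, 19.7 and 30.2 FPKM in morulae (4.37 ± 0.20, adjusted p = 5.2e-09). Pou5f1 (Oct4), its partner, was already present, at 9.57, 13.5, 11.5 and 5.99 FPKM, and reached 27.7, 31.6, 17.2 and 26.1 FPKM (1.28 ± 0.25, adjusted p = 5.7e-04). The stages did not overlap for either gene. Nanog had to differ, since it reached 1 FPKM in every morula and in no 2-cell library. For Pou5f1 the stages came closer, with the lowest morula value next to the highest 2-cell value. Klf5 rose from 2.84 ± 1.49 to 64.6 ± 15.8 FPKM, the nuclear receptor Nr5a2 from 2.72 ± 0.259 to 14.2 ± 2.50 FPKM, the Nodal coreceptor Tdgf1 from 0.271 ± 0.118 to 68.9 ± 22.2 FPKM, and Fbxo15 from 92.8 ± 10.1 to 2740.2 ± 463 FPKM, which made it 1 of the 10 most abundant genes of the morula. Of the 6 that fell, Tcl1 (-9.74) was named above as an oocyte gene. Sox2, which marks inner cells from the morula on, was listed at 0 in all 4 morulae and at 0.0619 to 0.150 FPKM in 2-cell embryos, under the minimum for testing. Dppa3 (Stella), which protects maternal methylation, was not called, with 254, 235, 297 and 341 FPKM in 2-cell embryos and 237, 234, 259 and 293 FPKM in morulae (95% interval of the log2 fold change -0.44 to 0.18), and was called lower under quantile normalization (-0.39, adjusted p = 0.0352 in limma).

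Of 25 tested trophectoderm genes, 17 rose and 3 fell (median 2.03; 1.32 to 3.05 over the settings tried). Tead4, the DNA-binding partner of YAP that starts this lineage, had 0.0531, 0.119, 0.0514 and 0.165 FPKM in 2-cell embryos and 54.6, 40.4, 42.4 and 47.4 FPKM in morulae (5.42 ± 0.14, adjusted p = 1.3e-10). Its target Cdx2 had 0, 0.284, 0.0818 and 0 FPKM and 1.83, 5.21, 2.65 and 5.04 FPKM (2.03 ± 0.24), a low level in both stages. Cdx2 had to differ, since it reached 1 FPKM in every morula and in no 2-cell library. The keratins of the outer epithelium rose, Krt18 from 3.85 ± 0.602 to 91.7 ± 17.2 FPKM and Krt8 from 1.75 ± 1.29 to 21.1 ± 3.71 FPKM, the latter with 26.9% of its words shared. Tfap2c, a factor of early trophectoderm, rose from 14.3 ± 1.66 to 56.4 ± 12.3 FPKM. Gata3 did not pass: it read 9.28, 8.18, 8.40 and 9.48 FPKM in 2-cell embryos and 5.06, 12.3, 11.5 and 18.9 FPKM in morulae, which overlap (adjusted p = 0.392 in limma). Without morula replicate 1, its lowest morula, Gata3 was called higher (0.60, adjusted p = 0.00986). The 3 members that fell were Dppa1 (-4.02), Anxa5 (-1.58) and Lgals1 (-1.05).

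In the Hippo pathway, which tells outer from inner cells by keeping YAP out of the nucleus, 14 of 21 tested genes rose and 5 fell (median 1.25; 0.79 to 2.64 over the settings tried). The 2 coactivators at its end moved apart. Yap1 fell, from 32.4, 39.5, 38.4 and 31.8 FPKM in 2-cell embryos to 3.80, 8.39, 4.40 and 5.37 FPKM in morulae (-2.54 ± 0.20), and its relative Wwtr1 (Taz) rose (4.22). The MST kinases also parted, Stk3 falling from 80.4 ± 4.53 to 2.28 ± 0.686 FPKM and Stk4 rising (3.13). Wwc2 (-1.94), Taok3 (-0.95) and Taok1 (-0.80) were the other genes that fell. These names outside the rule were picked after their values were seen.

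Of 40 tested genes of compaction, polarity and junctions, 26 rose and 9 fell (median 1.07; 0.66 to 1.52 over the settings tried). Cldn4, a claudin of tight junctions, had 0.280, 0.413, 0.373 and 0.131 FPKM in the 2-cell libraries and 145, 126, 165 and 176 FPKM in morulae. Cdh1 (E-cadherin), the adhesion protein of compaction, rose from 5.83, 5.99, 7.44 and 4.87 FPKM to 21.4, 33.4, 23.2 and 33.0 FPKM (2.02 ± 0.18), and Pard3, a scaffold of cell polarity, fell from 24.7 ± 4.88 to 1.37 ± 0.182 FPKM. Both Cldn4 and Cdh1 were also present in MII oocytes, at 29.1 ± 4.81 and 67.4 ± 10.2 FPKM, and were lower in 2-cell embryos than there. Of 10 tested genes of the sodium pump and of water and ion channels, which later pump fluid into the blastocyst cavity, 6 rose and 3 fell (median 0.45; -0.0030 to 1.57 over the settings tried). Aqp3, a water and glycerol channel, had 0.209, 0.146, 0.303 and 0 FPKM in 2-cell embryos and 20.1, 24.5, 13.99 and 21.6 FPKM in morulae (4.16 ± 0.18), while the pump subunit Atp1b1 rose less, from 1.85 ± 0.288 to 2.96 ± 0.653 FPKM (adjusted p = 0.0143), and Fxyd6 (-3.07) and Slc9a3 (-1.34) were among those that fell. Genes of the primitive endoderm and of FGF signalling rose in 11 of 16 cases (median 1.27; 0.55 to 3.15 over the settings tried). Gata6, the primitive endoderm factor, had 1.32, 1.61, 0.579 and 1.003 FPKM and then 29.8, 24.4, 22.5 and 13.6 FPKM (3.44 ± 0.24), Sox15 rose from 8.63 ± 1.12 to 203 ± 51.2 FPKM, and the FGF inhibitor Spry4 fell from 282 ± 23.6 to 1.29 ± 0.470 FPKM, with Spry1 (-2.29) and Gata4 (-0.67) the other 2 that fell.

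**Figure D5:**
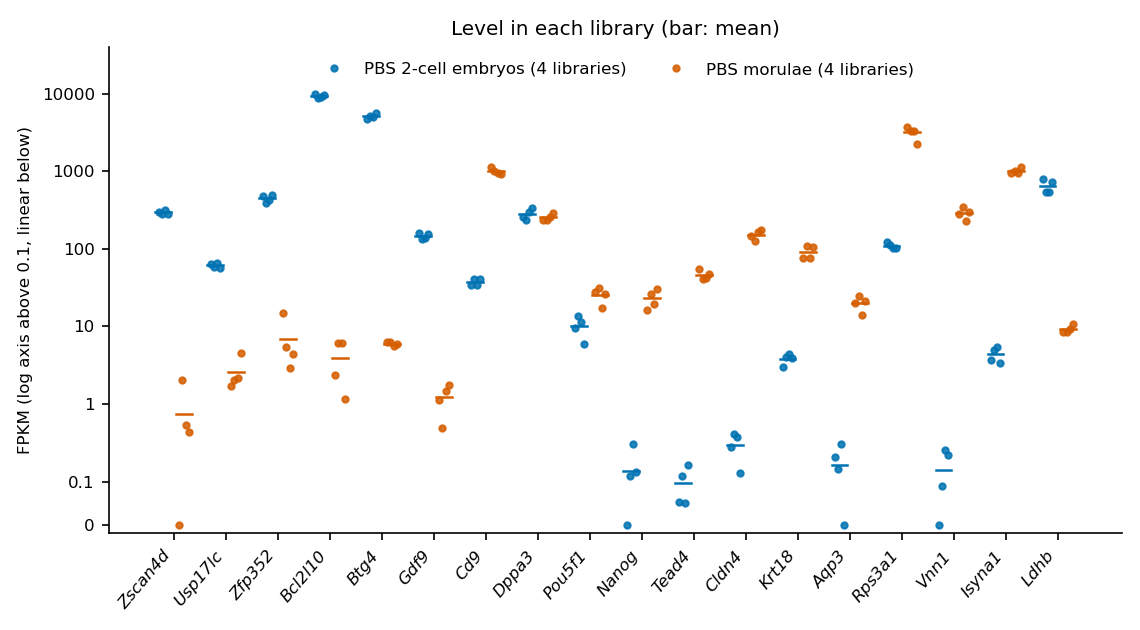
FPKM of 18 genes in each of the 4 libraries of 2-cell embryos (blue) and of morulae (orange), on a log axis that is linear below 0.1, with bars at the means. The stages are apart for every gene drawn except Dppa3; Zscan4d, Nanog, Aqp3 and Vnn1 each have 1 library at 0 in the stage where they are low.

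Metabolic lists held genes called in both directions. Among 18 tested genes of glucose uptake and glycolysis, 9 rose and 5 fell (median 0.48; 0.04 to 0.74 over the settings tried). Ldhb, the lactate dehydrogenase form of the egg (20.99% of its words shared), had 801, 535, 539.8 and 722 FPKM in 2-cell embryos and 8.40, 8.39, 9.31 and 10.9 FPKM in morulae (-5.97 ± 0.16), and Ldha, the form of most other tissues, was not called: it read 6.48, 6.62, 9.94 and 4.75 FPKM and 2.39, 7.01, 7.54 and 5.33 FPKM, which overlap. Hk2, a hexokinase, rose from 1.10, 1.54, 0.795 and 1.06 FPKM to 5.03, 9.46, 11.8 and 10.8 FPKM (2.23 ± 0.23), and Pgam1 from 6.60 ± 1.61 to 129.6 ± 11.7 FPKM with 36.2% of its words shared. The glucose transporter Slc2a1 was not called (23.3, 23.9, 23.8 and 21.3 FPKM, then 10.5, 32.03, 28.9 and 36.5 FPKM), and the morula replicate 1 lay below all 2-cell values while the others lay above them. Without that library Slc2a1 was called higher (0.47, adjusted p = 0.0072 in limma), and without morula replicate 4 it was -0.10. Besides Ldhb, the genes that fell were Pdk3 (-3.88), Pdk1 (-2.28), Tpi1 (-1.42) and Pkm (-0.70). The call of Pkm was lost without each of 5 libraries (2-cell replicates 2, 3 and 4, morula replicates 1 and 2). It was also lost without the filter on low values (adjusted p = 0.0623 in limma) and when scaled without mitochondrial and ribosomal protein genes (0.0657). Of 25 genes of pyruvate use and the citrate cycle, 13 rose and 7 fell (median 0.69; 0.44 to 0.89 over the settings tried), with Idh3b at 0.712 ± 0.222 and then 55.2 ± 5.83 FPKM and the malic enzyme Me1 (22.9% of its words shared) at 219.7 ± 15.7 and then 18.0 ± 4.34 FPKM. Fatty acid oxidation and lipid droplet genes rose in 18 of 24 cases (median 1.63). Acadl, a dehydrogenase of long-chain fatty acids, had 2.35, 2.83, 3.47 and 3.13 FPKM and then 315, 300.1, 325 and 339 FPKM (6.35 ± 0.13), and the nuclear receptor Pparg fell from 14.1, 11.4, 10.8 and 15.2 FPKM to 0, 0, 0.0179 and 0 FPKM (-3.77 ± 0.14). Of 16 amino acid carriers, 9 rose and 5 fell (median 1.41; 0.12 to 1.91 over the settings tried), among them Slc1a1 (3.56 ± 0.14), which overlaps an antisense gene over 31.9% of its exons, and Slc6a15 (-4.19 ± 0.15).

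Genes of DNA replication rose in 28 of 41 cases and fell in 8 (median 1.04), with thymidylate synthase, Tyms, going from 0.826 ± 0.120 to 47.0 ± 9.11 FPKM and Orc5 from 99.5 ± 13.5 to 13.4 ± 1.19 FPKM. Cyclins and their controls split into 12 higher and 15 lower of 28 (median -0.54; -0.65 to 0.02 over the settings tried). Myc, a driver of growth, had 1.85, 4.28, 2.74 and 1.37 FPKM in 2-cell embryos and 52.3, 50.05, 38.9 and 62.4 FPKM in morulae (3.91 ± 0.25), Ccnd1 moved from 2.17 ± 0.428 to 4.03 ± 0.770 FPKM, and E2f5 fell from 343 ± 22.5 to 4.78 ± 1.40 FPKM. Ccnd1 overlaps an antisense gene over 23.4% of its exons. Of 34 genes of p53 and cell death, 23 rose and 9 fell (median 1.29). Cdkn1a (p21), the p53 target that halts the cycle, had 4.67, 7.04, 10.5 and 6.11 FPKM and then 49.3, 71.7, 68.4 and 58.6 FPKM (2.997 ± 0.22), and Perp, another p53 target, rose from 2.23 ± 0.779 to 77.5 ± 28.6 FPKM.

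Genes that write and read chromatin were called in both directions, as were all tested genes (42.7% higher and 45.0% lower). Of 19 genes of DNA methylation, 8 rose and 9 fell (median -0.28; -1.49 to -0.10 over the settings tried). Uhrf1, which guides the maintenance methyltransferase, had 36.3, 28.3, 31.1 and 31.0 FPKM in 2-cell embryos and 0.772, 1.29, 1.65 and 0.836 FPKM in morulae (-3.95 ± 0.16), and Dnmt1, that methyltransferase, 8.73, 9.86, 8.83 and 12.1 and 2.12, 3.04, 1.95 and 2.23 FPKM (-1.71 ± 0.16), after 142 ± 6.41 FPKM in MII oocytes. Dnmt3l was not called (95% interval -0.60 to 0.05). Of 48 Polycomb genes and histone modifiers, 18 rose and 21 fell, around a median of 0.09 that turned to -0.61 when only genes at 10 FPKM or more were tested. Hdac1, a deacetylase, rose from 12.3 ± 1.42 to 152 ± 20.1 FPKM with 35.3% of its words shared, and Phf1, a Polycomb accessory protein, fell from 81.2 ± 23.2 to 0.555 ± 0.204 FPKM with 39.3% of its exons overlapped by an antisense gene. Linker and variant histones and their chaperones split evenly, 9 higher and 9 lower of 22 (median -0.09), a median whose sign turned under quantile normalization (0.08), under rescaling to TPM (0.07) and without the filter on low values (0.08). H2afz, a histone variant of active genes, rose from 97.4 ± 12.5 to 474 ± 101 FPKM. Of 23 genes named as regulators of the first embryonic transcription, 11 rose and 8 fell (median -0.08; 1.09 at a minimum of 10 FPKM, 0.00 under median-of-ratios scaling, 0.02 when scaled without mitochondrial and ribosomal protein genes), Trim28 among those that rose (5.31, 6.10, 5.57 and 3.29 FPKM, then 51.9, 77.3, 50.3 and 50.99 FPKM).

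Most of the stage markers given here matched the labels. The 4 markers of the 2-cell stage given above (Zscan4d, Tcstv3, Zfp352 and Usp17lc) were higher in each 2-cell library than in any morula. Zscan4c and Tdpoz4 were also set as markers of this stage, and their values are not given here. Nanog, Cdx2, Krt8, Krt18, Cldn4 and Tfap2c were higher in each morula than in any 2-cell library. Of these, Nanog, Cdx2 and Cldn4 reached 1 FPKM in every morula and in no 2-cell library, so they had to differ once tested. Of all genes tested, 83.4% had stages that did not overlap. The morula marker Gata3 overlapped, and Sox2 was at 0 in all 4 morulae. Markers of cumulus and granulosa cells, which surround the egg, summed to 24.7 to 34.1 FPKM over 18 genes in the 2-cell libraries and to 24.3 to 33.1 FPKM in morulae. Only 3 of the 18 reached the minimum for testing. Serpine2 held most of the 2-cell sum (29.2, 20.8, 18.3 and 26.7 FPKM, then 6.96, 13.9, 20.3 and 21.1 FPKM in morulae) and was not called, though it was called lower under quantile normalization, array weights and voom and without morula replicate 3 or 4 (-0.64 to -0.83, adjusted p = 0.0276 to 0.0459 in limma). Cyp19a1 had 2.295, 2.71, 2.33 and 3.28 and then 0, 0, 0.0234 and 0 FPKM, and Hsd17b1 0, 0, 0.0921 and 0 and then 17.0, 12.6, 12.5 and 10.1 FPKM. Inha and Ptx3 were the only 2 of the 18 markers at 0 in all 8 libraries. Fshr had 0.337, 0.103, 0.178 and 0.0570 FPKM in the 2-cell libraries and 0 in morulae. Markers of sperm summed to 21.8 to 28.7 and 6.17 to 7.97 FPKM over 13 listed genes. Odf2, also a centrosome protein, held 16.9, 19.3, 20.8 and 15.3 FPKM of this and then 1.42, 1.85, 1.81 and 1.89 FPKM. Tnp1 was 1 of the 2 listed sperm genes at 0 throughout. Blood and immune markers summed to 6.00 to 11.4 and 4.74 to 11.2 FPKM over 10 listed genes. Of these, 3 were tested, with 1 called higher and 1 lower, and only Ptprc was at 0 in all 8 libraries.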

How the data were processed

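RNA of PBS 2-cell embryos, PBS morulae and PBS MII oocytes had been copied with Smart-seq2. The authors deposited FPKM values, for whose making the aligners Bowtie2 2.2.3 and TopHat2 2.0.12 are named per the submitters' processing notes. The unit is read from the values, whose steps scale with exon length (90.8% to 91.4% of values under 200 reads were whole reads within 0.01 in the embryo libraries). The genome entry of those notes, galGal4, is a chicken build although the identifiers are mouse Ensembl genes. For the counter and the annotation, the tool is not given in the sources used here.

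Genes that reached 1 FPKM in 4 or more of the 8 libraries were tested with limma 3.58.1 in R 4.3.3 (variance trend, log2(FPKM + 1)), with Benjamini-Hochberg adjustment over all 12517 genes and a threshold of 0.05. No other sample entered the fit. The code was tested on simulated data. Named genes are the 12 largest rises and 12 largest falls without overlap, a fixed panel, the largest called rise and fall of each list (each with a mean of 5 FPKM or more) and the related pairs; members left by small counts, and Stk4, Wwtr1, Serpine2, Cyp19a1 and Fshr, were added after their values were seen. The members and lists were chosen with earlier results of these data known. Promoters came from RefSeq (GRCm38.p6), which held 117 of 164 genes named by the rule, and coordinates from GENCODE M21 (GRCm38). Other pseudocounts, filters, scalings, fits and single libraries left out were tried.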

Additional observations from a re-analysis of the deposited data

Results flagged for a closer look

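In groups of 4 libraries, 340 sets of values of named genes and library measures were examined for a library that stands apart, by its gap to the nearest other value as a share of the range. The limit was Dixon's 95% critical value for 4 samples, and chance flags about 1 group in 20. It was passed in 15 groups.

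In morulae the highest library stood apart for Usp17lc (4.55 FPKM against at most 2.14 in the others, a gap of 0.849 of the range), Zp3 (43.1 against 28.03, 0.864), Ccnd1 (5.17 against 3.81, 0.83), Trim28 (77.3 against 51.9, 0.941), Ctsc (707 against 579, 0.934), Nlrp14, a relative of the subcortical complex (12.4 against 5.59, 0.865), and Eif4e (391 against 337, 0.845). For Pparg 1 morula had 0.0179 FPKM and the others 0, a gap of 1, and for Cyp19a1 1 morula had 0.0234 FPKM and the others 0, also a gap of 1. The lowest morula stood apart for Slc1a1 (13.9 FPKM against at least 16.05, 0.848) and Bcl2l1 (9.19 against 10.9, 0.911). In 2-cell embryos the highest library stood apart for Tcl1b3 (2005 FPKM against 1589, 0.908), Wee1 (8.11 against 6.25, 0.992) and Hsd17b1 (0.0921 against 0, a gap of 1), and the lowest for Pmvk, an enzyme of sterol synthesis (1.04 FPKM against 2.13, 0.837).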

How the results depend on the processing

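The counts of higher and lower genes kept within 1.5 times under every setting except the filters: with a minimum of 10 FPKM they were 2532 and 2300, of fewer genes tested, and without a filter 8863 genes were lower. Leaving out each library gave 5206 to 5364 higher and 5553 to 5681 lower genes. The median over all genes went from -0.08 to 0.11 under quantile normalization and to -0.20 under TPM scaling. At the minimum of 10 FPKM, with fewer genes tested, that median was 0.24. Medians of 34 lists moved in 166 cases, most often at the minimum of 10 FPKM and with voom or a pseudocount of 0.1, and counts of list members moved by over 1.5 times in 68 cases and kept within it in 1300. The genes of the primitive endoderm list called higher, for instance, numbered 3 to 14. Some medians near 0 changed sign. For regulators of first transcription it was 1.09 at the minimum of 10 FPKM, 0.0026 under median-of-ratios scaling and 0.025 when scaled without mitochondrial and ribosomal protein genes. For mitochondrially encoded genes it was 0.27 at the minimum of 10 FPKM, and -0.24 to 0.015 over the libraries left out, above 0 without morula replicate 4. Without a filter it was -0.00303 for the sodium pump list, 0.017 for cyclins, 0.084 for histones and -0.036 for imprinted genes. Under TPM scaling it was 0.068 for histones and -0.013 for imprinted genes, under quantile normalization 0.077 for histones, and at the minimum of 10 FPKM -0.61 for the Polycomb list.

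Of the named genes, 4 that were not called changed sign: under quantile normalization Zp3 was -0.079, Slc2a1 -0.022 and Uchl3 -0.27, and under TPM scaling Uchl3 was -0.016. With libraries left out, Zp3 ranged from -0.095 to 0.15, Slc2a1 from -0.099 to 0.47, Wee1 from -0.034 to 0.22 and Uchl3 from -0.050 to 0.15. The mitochondrial share differed by 0.674 percentage points with protein-coding genes only (exact permutation p = 0.143), and with a minimum of 5 FPKM 1252 higher and 2764 lower genes were present in MII oocytes; both settings were chosen after seeing the data. In the 250 bases before the start, GGGCGG occurred in 60% of higher and 51.4% of lower genes, CCGGAAG in 17.7% and 10.8%, CCAAT in 36.0% and 37.5%, CACGTG in 9.30% and 7.25%, AAGATGGC in 2.44% and 2.07%, and GGAATG in 10.6% and 10.6%. The causes were not tested. No paired analysis was possible because the 2-cell libraries carry letters and the morula libraries digits in their labels. Genes near 1 FPKM rest on few reads.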

Other observations

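Antioxidant genes split by family member: 16 of 29 tested rose and 9 fell (median 1.09; 0.36 to 1.18 over the settings tried). The peroxidase Gpx4, which repairs lipid peroxides, went from 4.62, 7.34, 5.54 and 2.72 FPKM in 2-cell embryos to 134, 102, 114 and 76.6 FPKM in morulae, with 34.7% of its words shared, and the mitochondrial peroxiredoxin Prdx3 rose by 3.91 on the log2 scale. Glrx (-4.21), Prdx2 (-3.67) and Prdx1 (-1.92), all cytosolic thiol enzymes, fell, and Sod1 was not called (0.02). Sterol synthesis was divided in the same manner, with 9 of 18 tested genes higher and 6 lower (median 0.37; 0.15 to 0.76 over the settings tried): Pmvk (3.16), Mvd (3.05) and Msmo1 (2.96) rose, while Nsdhl (-2.42), Sc5d (-2.41) and Hmgcs1 (-2.28) fell. Of 22 endoplasmic reticulum stress genes, 15 rose and 4 fell (median 0.53), among the latter Ern1 (-1.92), Ddit3 (-1.62) and Ppp1r15a (-1.48). These examples were picked after their values were seen.

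Imprinted genes rose in 8 and fell in 5 of 15 tested cases (median 0.65, which was -0.036 without a filter, -0.013 under TPM scaling and 1.86 at a minimum of 10 FPKM), with Impact at 4.43 and Mest at -2.76, the latter with 23.1% of its exons overlapped by an antisense gene. Xist, the RNA that silences an X chromosome, rose from 0.0178, 0.120, 0.0688 and 0.00993 FPKM to 5.14, 8.54, 2.56 and 7.68 FPKM, and the Y-linked Eif2s3y rose by 1.99, Ddx3y by 1.64 and Uba1y by 1.16. All 4 morula libraries held both Xist and Y-linked RNA.

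The kinds of gene differed in their balance. Of 566 tested lincRNAs 437 fell and 89 rose (median -2.06), and of 212 antisense genes 160 fell and 34 rose (median -1.63), beside 4297 lower and 4615 higher of 10170 protein-coding genes (median 0.12). Processed pseudogenes leaned the other way, with 416 of 850 higher and 312 lower (median 0.52). They share sequence with the genes they were copied from, so reads may be split between the 2, which was not tested. Of 173 unprocessed pseudogenes 121 fell and 26 rose (median -1.73).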
